A study of Drosophila melanogaster with 9 samples.

Results

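Small RNA libraries of the carcass and of the testes of Canton-S, a wild-type laboratory strain of Drosophila melanogaster, were compared. They are 2 of the 5 small RNA libraries of the series, which has 9 samples in all, and were chosen by strain and tissue from the labels. Both came from adult flies aged 3 to 5 days and raised at 25 °C, with no treatment named. The other small RNA libraries were from testes of Z56, a second strain, and from ovaries of Canton-S and of Z56. They had the same ages and temperature, and their values are set beside the comparison. The labels give neither the sex of the flies that supplied the carcass nor which organs had been removed from it, and there was 1 library of each tissue. The libraries held 12306695 reads (carcass) and 1394265 reads (testes) assigned to 465 mature microRNAs (miRNAs), so the carcass library was 8.83 times deeper. With 1 library a side no test of the tissue difference is possible. The intervals given are exact 95% intervals for counting error alone, and reads copied from one molecule by PCR make them too narrow.

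A miRNA is a short RNA cut from a hairpin precursor, and guides Argonaute proteins to matching sites in messenger RNAs, which are then repressed. Either side of the hairpin can yield the mature product, named the 5p or the 3p arm. Many Drosophila miRNA genes stand in clusters that are transcribed together. Some miRNAs are known for a single tissue, such as miR-1 in muscle and miR-124 in neurons, while several fast-evolving clusters are known mainly from the testis.

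Muscle miR-1-3p dominated the carcass. It had 6534562 reads in carcass, or 53.1% of all miRNA reads (53.07% to 53.13%), and 254517 reads in Canton-S testes, or 18.3% (18.19% to 18.32%). It was the most abundant miRNA of both libraries. The next in carcass were miR-34-5p, known for protection of the ageing brain, at 13.2% against 9.68% in testes, and miR-184-3p, known for roles in the female germ line, at 9.79% against 8.85%. let-7-5p, a regulator of developmental timing, stood at 8.50% in carcass and 13.6% in testes, a difference whose direction turned with each of the other scalings described below. miR-275-3p went from 2.38% in carcass to 16.3% in testes, a 6.83-fold difference (6.80 to 6.87) that was under 4-fold with the TMM and DESeq2 scalings described there. The same 5 miRNAs therefore led both libraries, but they made up 87.0% of carcass reads and 66.6% of testis reads.

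**Figure D1:**
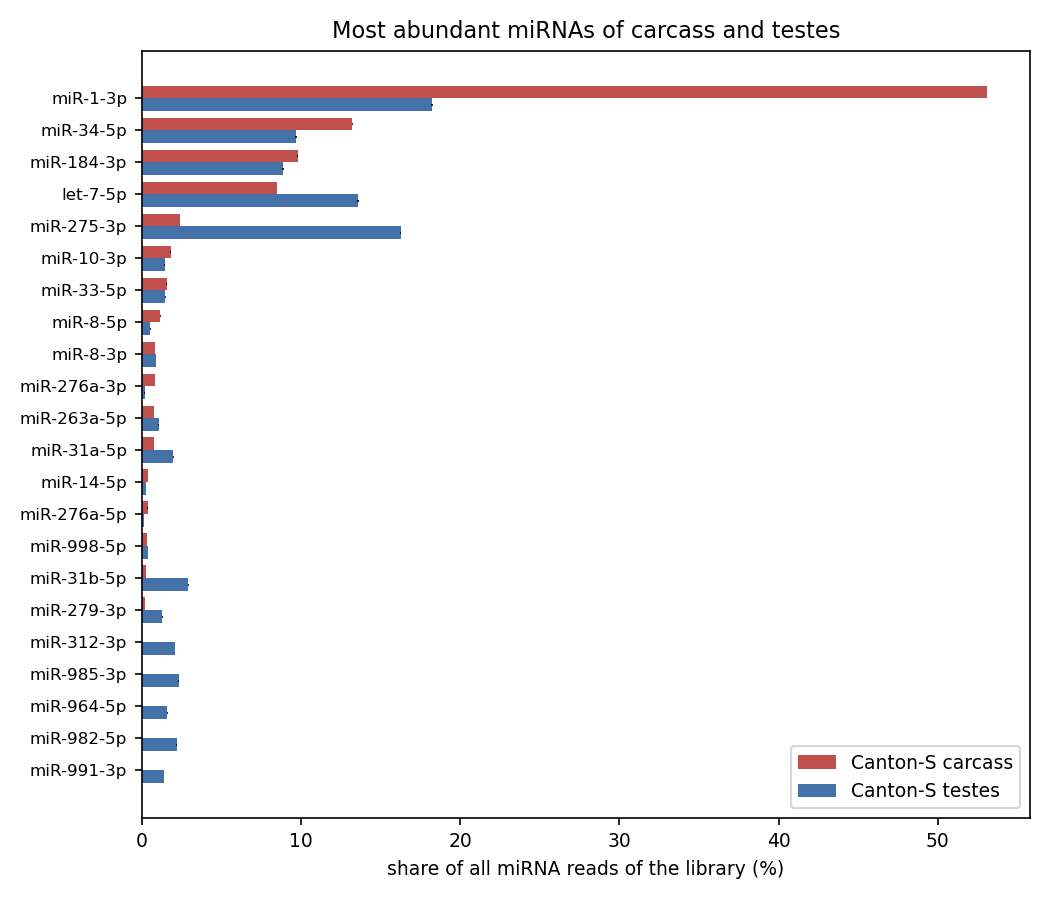
Share of all miRNA reads (percent, x axis from 0) for each miRNA among the 15 most abundant of Canton-S carcass (red) or testes (blue), with exact 95% counting intervals as error bars, most narrower than the line. miR-1-3p takes 53.1% of carcass reads and 18.3% of testis reads, while miR-312-3p, miR-985-3p, miR-964-5p, miR-982-5p and miR-991-3p have a visible bar in testes only.

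The testis library was the more even of both. It took 22 miRNAs to reach 90% of its reads and 74 to reach 99%, against 7 and 40 in carcass. Of the 15 most abundant miRNAs of each tissue, 8 were shared. Beyond the common leaders, the testis list held miR-31b-5p at 2.93% of reads (0.274% in carcass), miR-985-3p, miR-982-5p, miR-312-3p, miR-964-5p, miR-991-3p and miR-279-3p, and the carcass list held both arms of miR-8 and of miR-276a, miR-263a-5p, miR-14-5p and miR-998-5p.

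Levels were compared as RPM, the reads per 1000000 miRNA reads of a library. With at least 10 RPM in either library, 197 miRNAs were compared, and a difference of at least 4-fold was counted. Of these, 89 were higher in testes (45.2% of those compared) and 29 were higher in carcass (14.7%), so 59.9% were called in either direction and 79 differed by less than 4-fold. A miRNA that reached 10 RPM in only 1 library is higher there by that rule. The median log2 ratio of carcass over testes was -1.65. All miRNAs other than miR-1-3p shared 46.9% of carcass reads and 81.75% of testis reads. Scaling by TMM instead, a method that centres the bulk of miRNAs, moved every log2 ratio towards carcass by 1.68, DESeq2 size factors by 1.53 and totals without miR-1-3p by 0.80. With TMM 57 miRNAs were at least 4-fold higher in carcass and 60 in testes, and with DESeq2 size factors 52 and 60. The testis side then held 51.3% and 53.6% of the calls, against 75.4% with total reads.

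A separate group stood far from the rest on the testis side. There were 54 miRNAs at least 64-fold higher in testes, and the next one, miR-1003-3p, lay at a log2 ratio of -5.45 against -6.20 for the nearest member of the group; the limit was set after the values were seen. Of the 54, 42 were on the lists of 4 testis clusters and 8 were the arms of the miR-310 cluster. The other 4 were both arms of miR-9369, miR-989-3p and miR-997-3p. Although not on a list, miR-9369 stands among miR-972 to miR-979 in the RefSeq gene table. Together they made up 14.5% of testis reads and 0.0151% of carcass reads. In testes of the second strain, Z56, whose table was scaled separately and was not used to choose them, they made up 15.3%.

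**Figure D2:**
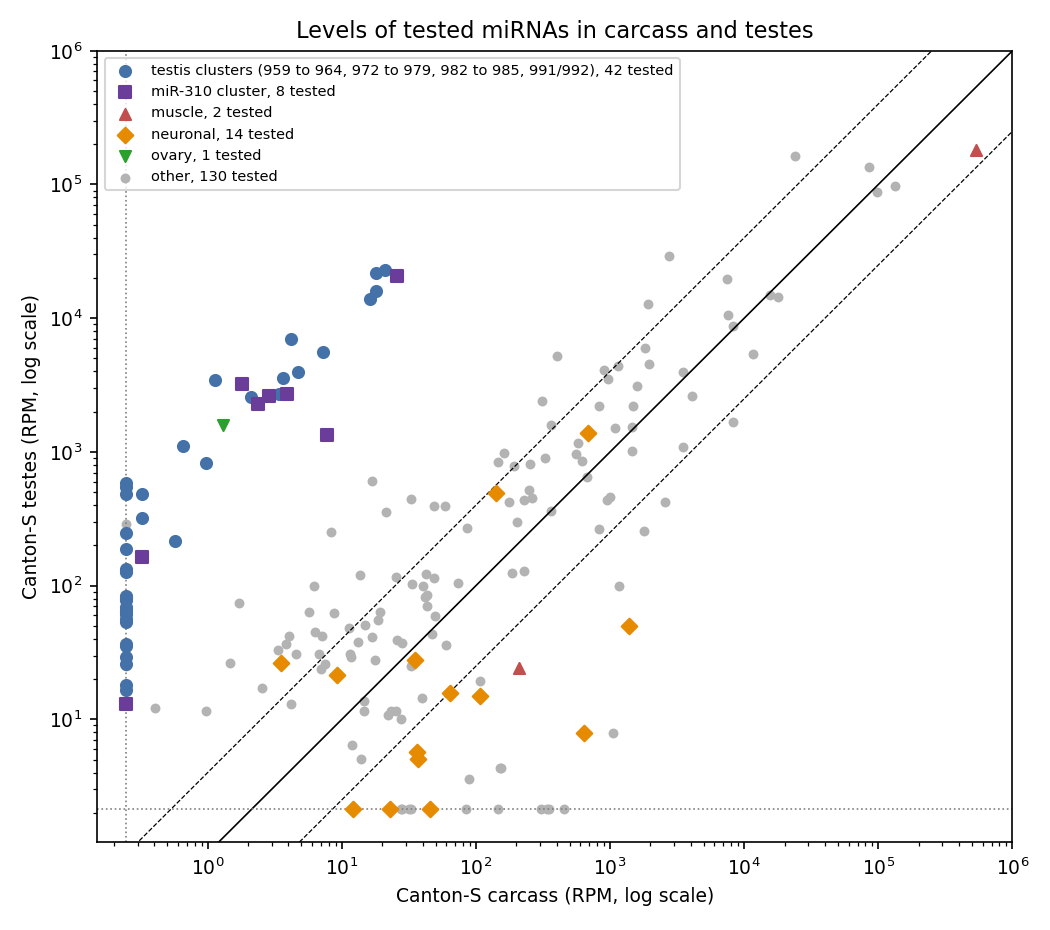
Level of each of the 197 compared miRNAs in Canton-S carcass (x axis) and Canton-S testes (y axis), in RPM on log axes; 3 reads or fewer are drawn at the dotted lines, the level of 3 reads (0.244 RPM in carcass, 2.15 RPM in testes). The solid line marks equal levels and the dashed lines 4-fold differences. The arms of the 4 testis clusters and of the miR-310 cluster form a band at the upper left. Of the 14 neuronal miRNAs, 9 lie to the right of the lower dashed line and 1, miR-7-3p, lies above the upper one.

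The 4 testis clusters accounted for most of that group. Their arms held 153368 reads in testes, 11.0% of the library, and 1279 reads in carcass, or 103.9 RPM. All 42 compared arms were at least 4-fold higher in testes, against 45.2% of all miRNAs compared, and all 42 remained so under TMM, DESeq2 size factors and totals without miR-1-3p. The clusters were listed with their excess in testes over ovaries in these data already known.

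The list of miR-982 to miR-985 with miR-303 and miR-2499 took 5.59% of testis reads, or 3.28% without miR-985. The RefSeq table places neither miR-985 nor miR-2499 within 10 kb of the others, and miR-2499 stands among miR-972 to miR-979. For miR-985-3p the carcass gave 260 reads (21.1 RPM), the Canton-S testes 32221 (23110 RPM) and the Z56 testes 17876 (12986 RPM), a 1094-fold difference between the Canton-S tissues (968 to 1241). miR-982-5p had 220, 30376 and 32435 reads in that order, a 1219-fold difference (1067 to 1398). In both cases the carcass level was a trace beside either testis library. miR-984-5p followed at 7046 RPM in testes and 4.14 RPM in carcass, and miR-983-5p, whose reads were listed identically at both of its gene copies, at 3583 and 3.66 RPM. All 11 compared arms of the list were higher in testes, with a median log2 ratio of -8.39 against -1.65 over all miRNAs compared. The 8 compared arms of miR-982, miR-303, miR-983 and miR-984, which stand together, had a median of -9.16.

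In the cluster of miR-959 to miR-964, all 12 arms were higher in testes, with a median log2 ratio of -9.76. Its leading product miR-964-5p had 22198 reads in Canton-S testes, 23699 in Z56 testes and 223 in carcass, an 879-fold difference (770 to 1007). miR-959-3p had 7848, 10121 and 89 reads, and miR-962-5p had 4818, 3996 and 14 reads. Both testis libraries were thus far above carcass for each of these arms. The largest ratio of the cluster was that of miR-963-5p, at 815 reads in testes and 2 in carcass (3597-fold, 993 to 29751). The whole cluster took 3.49% of testis reads and 0.00354% of carcass reads.

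The miR-972 to miR-979 and the miR-991 and miR-992 clusters were smaller. The first took 0.512% of testis reads through 14 compared arms, led by miR-974-5p with 3786 reads in Canton-S testes, 4381 in Z56 testes and 42 in carcass (796-fold, 588 to 1106). Its arm miR-975-5p stood at 548 RPM in Canton-S testes and 720 RPM in Z56 testes against 1 carcass read, for a ratio of 6744 with a wide interval (1207 to 266701). The second took 1.41% of reads in testes of Canton-S but 0.457% in those of Z56. Its abundant arm miR-991-3p had 19253 reads in Canton-S testes, 5361 in Z56 testes and 198 in carcass (858-fold, 746 to 992.3).

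The miR-310 cluster was as far on the testis side as the testis clusters, although ovaries also carry it. In the RefSeq gene table it stands next to the cluster of miR-991 and miR-992. All 8 arms of miR-310 to miR-313 were at least 4-fold higher in testes, with a median log2 ratio of -9.54. Its main product miR-312-3p had 28929 reads in Canton-S testes (20749 RPM), 35340 in Z56 testes (25674 RPM) and 317 in carcass (25.8 RPM), an 806-fold difference (721 to 903). In ovaries the same arm stood at 22721 RPM (Canton-S) and 18058 RPM (Z56), so carcass was the one tissue of the 3 where it was nearly absent. miR-310-3p had 29 reads in carcass, 3200 in testes of Canton-S and 18523 in those of Z56, and miR-311-3p 35, 3648 and 12421. The 3p arms of this cluster are related in sequence, and how reads matching several miRNAs were assigned is not stated. miR-313-5p had a smaller ratio than these, with 1875 reads in testes and 95 in carcass, a 174-fold difference (142 to 216).

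Of the arms of the 4 testis clusters and the miR-310 cluster, 19 had at least 1000 reads in Canton-S testes, a limit set after the values were seen. Their ratios of testes over carcass ran from 174 (miR-313-5p) to 3038 (miR-962-5p), with a median of 920. miR-989-3p, an ovary miRNA outside these clusters, had 2220 reads in Canton-S testes, 162 in Z56 testes and 16 in carcass, a ratio of 1225 (753 to 2146). Where the carcass reads of these miRNAs came from was not tested.

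The relatives miR-92a and miR-92b share the seed of the miR-310 cluster 3p arms, as is known of the family, but differed less between the tissues. miR-92a-3p had 208 reads in carcass, 847 in Canton-S testes and 2283 in Z56 testes, or 16.9, 608 and 1659 RPM. Its testis level was 35.9-fold above carcass (30.9 to 42.0). For miR-92b-3p the difference was 16.6-fold (14.3 to 19.3) and for miR-92a-5p 7.99-fold (7.10 to 8.99); the last fell under 4-fold with TMM and with DESeq2 size factors. All 3 compared arms were thus higher in testes, yet each by far less than any arm of the miR-310 cluster.

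A miRNA was called confined to testes if it had at least 10 RPM there and at most 3 reads in carcass, as many as a true level behind a count of 0 could give. This held for 30 miRNAs (15.2% of those compared), 14 of them with no carcass read. Their testis counts ran from 18 to 815 reads, with a median of 102, and together they made up 0.395% of testis reads. The abundant arms of the testis clusters were not among them, since each left more than 3 reads in the deep carcass library; miR-985-3p had 260. With a limit of 2.15 RPM for both tissues, that of 3 testis reads, the count was 44. Of the 30, 26 were on the lists of the 4 testis clusters. The other 4 were miR-997-3p, miR-313-3p, and miR-9369-5p and miR-9369-3p, whose gene stands among miR-972 to miR-979. By arm, 18 were 3p and 12 were 5p products, a count with no share over all miRNAs beside it. Just outside the limit lay miR-977-3p, with 4 reads in carcass and 672 in testes, miR-4966-3p with 4 and 450, and miR-310-5p with 4 and 228.

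Most of the 30 recurred in Z56 testes, which had no part in the rule. There 28 were at 10 RPM or more, and the 30 had a median of 100.5 reads. Over all miRNAs, 175 reached 10 RPM in Canton-S testes and 179 in Z56 testes, so the recurrence is not read as particular to the 30. miR-975-5p stood there at 720 RPM, miR-963-5p at 642 RPM and miR-9369-3p at 371 RPM. An exception was miR-979-5p, with 108 reads in Canton-S testes and 0 in Z56 testes, where 3 reads are 2.18 RPM. miR-963-3p had 680 reads in Canton-S testes, 38 in Z56 testes, 12 in Canton-S ovaries and 0 in carcass, and miR-303-3p had 49 and 12 reads in the testis libraries. In ovaries 28 of the 30 had at most 3 reads in Canton-S and 29 of 30 in Z56, but these shallower libraries set that limit at 7.54 and 4.41 RPM, against 0.244 RPM in carcass. miR-313-3p was the exception in both, with 51 and 9 ovary reads against 18 in Canton-S testes and 1 in carcass.

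**Figure D3:**
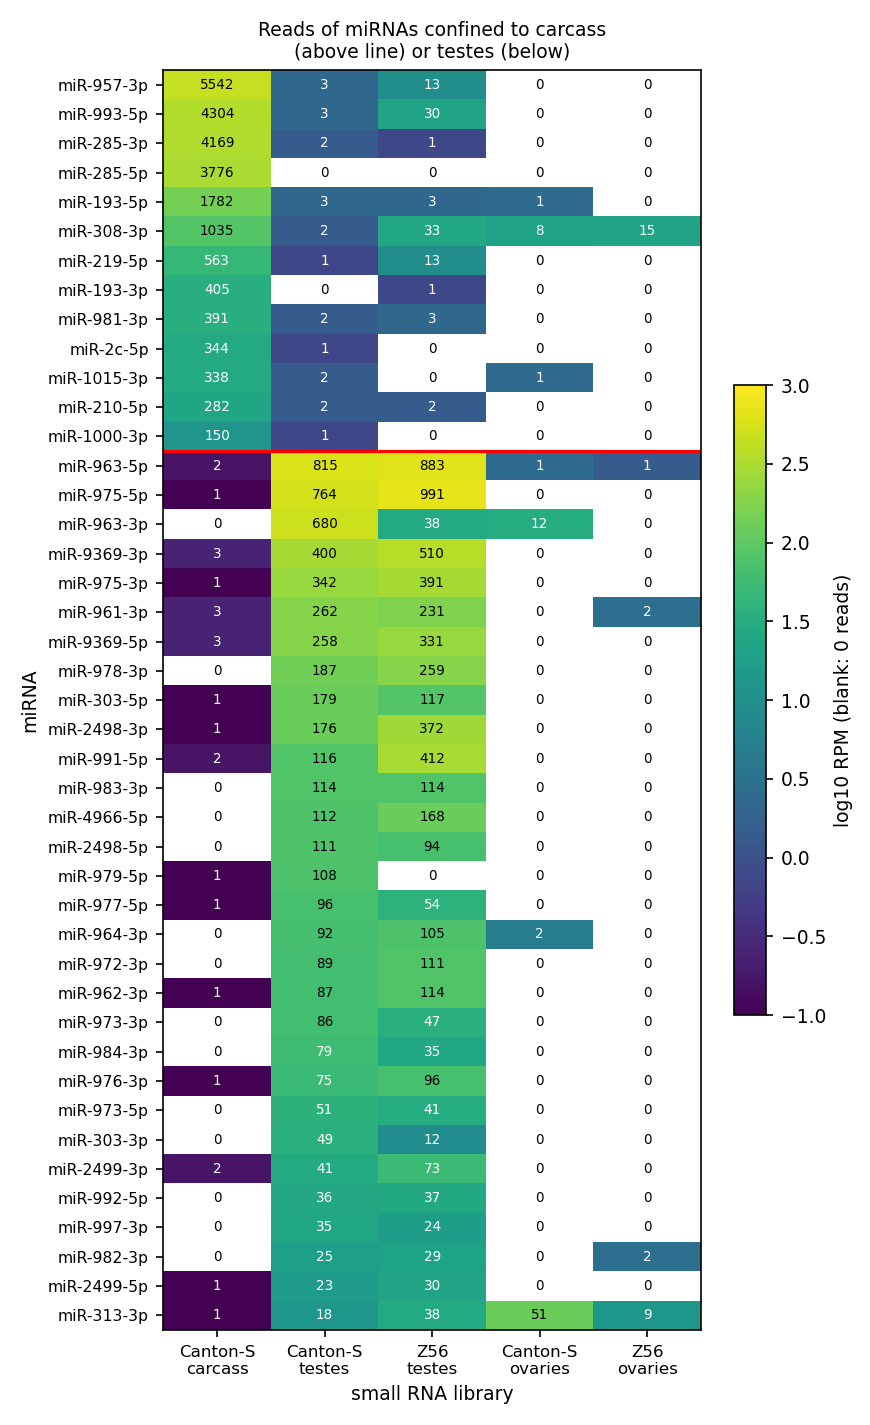
Read counts (numbers) and log10 RPM (colour, blank for 0 reads) of the 13 miRNAs confined to carcass, above the red line, and the 30 confined to testes, below it, in the 5 small RNA libraries. The Z56 testis column was not used to choose them and resembles the Canton-S testis column, with miR-979-5p at 0 reads as the clearest departure; the carcass column is 8.83 times as deep as Canton-S testes.

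The sides of the comparison differed in gene neighbourhood. Precursors were grouped where the RefSeq gene table (Release 6 plus ISO1 MT) places them within 10 kb of each other; 255 of 256 precursors were found in it. Of the 89 testis-high miRNAs, 74 (83.2%) came from such groups, against 8 of 29 carcass-high ones (27.6%) and 34 of the 79 others (43.0%). The 89 include the 42 compared arms of the testis clusters and the 8 of the miR-310 cluster, and arms of the same hairpin or cluster are counted singly. All 30 miRNAs confined to testes except miR-997-3p lay in groups, but 2 of the 13 confined to carcass did. Of 19 groups with at least 2 compared miRNAs, 6 were at least 4-fold higher in testes in every compared arm, none was so in carcass, and 2 held arms called in opposite directions. With TMM or DESeq2 size factors these counts were 4 in testes and 2 in carcass, since the groups of miR-9c and of miR-92a no longer passed 4-fold in every arm and those of miR-281 and of miR-969 with miR-210 did. In-group shares were then 90.5% and 90.6% of testis-high and 36.5% and 36.2% of carcass-high miRNAs. In that table miR-9369 and miR-2499 stand among miR-972 to miR-979, and miR-2498 and the pair of miR-991 and miR-992 stand next to miR-310 to miR-313.

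Another group high in testes at a moderate ratio was that of miR-12, miR-283 and miR-304. miR-12-5p had 4965 reads in carcass (403 RPM), 7304 in Canton-S testes (5239 RPM) and 7135 in Z56 testes (5183 RPM), a 13.0-fold difference (12.5 to 13.5). miR-304-5p stood at 6.18, 99.0 and 95.9 RPM in that order. In all, 4 of the 5 compared arms were at least 4-fold higher in testes, while miR-283-5p stood at 16.7 and 41.6 RPM. miR-283-3p, at 8.69 and 62.4 RPM, was less than 4-fold higher with TMM and DESeq2 size factors. Likewise all 5 compared arms of the group of miR-9c, miR-306, miR-79 and miR-9b were higher in testes, led by miR-79-3p at 311 RPM in carcass and 2415 RPM in testes, although none of the 5 kept a 4-fold difference under TMM or DESeq2 size factors. miR-31b-5p, at 2736 RPM in carcass against 29279 and 30908 RPM in the testis libraries (10.7-fold, 10.6 to 10.9), was the most abundant testis-high miRNA after miR-275-3p, and was under 4-fold with both of these scalings.

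On the carcass side, the muscle miRNAs and most of the neuronal ones were higher. miR-133-3p, which like miR-1 is known from muscle, had 2556 reads in carcass (208 RPM), 34 in Canton-S testes (24.4 RPM) and 37 in Z56 testes (26.9 RPM), an 8.52-fold difference (6.08 to 12.3). miR-1-3p was 2.91-fold higher in carcass (2.90 to 2.92), which is under 4-fold, and passed 4-fold with each of the 3 other scalings. Of the 20 arms on the neuronal list 14 were compared, with a median log2 ratio of 2.75. Of the 14, 9 were at least 4-fold higher in carcass, against 14.7% of all miRNAs compared. Most of the 9, among them both arms of miR-1000 and of miR-210, reached 10 RPM in carcass alone, so their direction was set by that minimum. Both arms of miR-1000, miR-210 and miR-932 are counted singly. In bulk tissue, fewer cells of a type and less RNA per cell cannot be told apart.

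Among the neuronal arms, miR-124-3p, the marker of neurons, had 16947 reads in carcass (1377 RPM), 69 in Canton-S testes (49.5 RPM) and 346 in Z56 testes (251 RPM). The Canton-S tissues differed 27.8-fold (21.98 to 35.8). miR-210-3p, known from photoreceptors, had 7853, 11 and 9 reads in that order, an 80.9-fold difference (45.2 to 162). For both, each testis library was below carcass, and by more for miR-210-3p. miR-219-5p had 563 reads in carcass, 1 in Canton-S testes and 13 in Z56 testes. miR-1000-5p, which limits glutamate release from neurons, had 458, 7 and 13 reads, and the 2 arms of miR-932 were 4.03-fold and 7.06-fold higher in carcass. The exceptions on the list were both arms of miR-7, miR-190 and miR-137-3p. miR-7-3p was 7.60-fold higher in testes at 43 carcass and 37 testis reads, and less than 4-fold with TMM and DESeq2 size factors; miR-137-3p stood at 35.4 RPM in carcass and 27.97 RPM in testes.

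Confined to carcass, with at least 10 RPM there and at most 3 reads in Canton-S testes, were 13 miRNAs (6.6% of those compared). Because testes were sequenced less deeply, 3 reads correspond to 2.15 RPM there, so this limit is looser than the one for carcass. miR-285, known from glia and the blood-brain barrier, had the clearest pattern. Its 5p arm had 3776 reads in carcass and none in either testis library or either ovary library. With the 0 Canton-S testis reads set at 3, it was at least 143-fold higher in carcass, and the exact interval began at 116-fold. Its 3p arm had 4169 reads in carcass, 2 in Canton-S testes and 1 in Z56 testes, a 236-fold difference (65.3 to 1951).

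The most abundant of the 13 was miR-957-3p, with 5542 reads in carcass, 3 in Canton-S testes and 13 in Z56 testes (209-fold, 71.6 to 1015). miR-193-5p had 1782, 3 and 3 reads and miR-193-3p 405, 0 and 1. miR-981-3p had 391, 2 and 3 reads. These were low in both testis libraries, apart from the 13 reads of miR-957-3p in Z56. The minor arms miR-210-5p (282, 2 and 2 reads) and miR-1000-3p (150, 1 and 0 reads) completed the set, with miR-2c-5p and miR-1015-3p described below. In Z56 testes 9 of the 13 had at most 3 reads, and the other 4 were miR-308-3p (33 reads), miR-993-5p (30), miR-957-3p (13) and miR-219-5p (13). For miR-308-3p, with 1035 reads in carcass and 2 in Canton-S testes, the ovary libraries also held 8 and 15 reads, so it was not confined to carcass once those libraries are set beside it. miR-993-3p, the sister arm of miR-993-5p, had 12872 reads in carcass, 11 in Canton-S testes and 133 in Z56 testes. Both arms of miR-993 were thus more abundant in Z56 than in Canton-S testes while far below carcass in either.

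Further carcass-high miRNAs had more than 3 reads in Canton-S testes. miR-277, which represses genes of branched-chain amino acid breakdown, was higher in carcass in both arms. Its 5p arm had 31843 reads in carcass (2587 RPM), 587 in Canton-S testes (421 RPM) and 369 in Z56 testes (268 RPM), a 6.15-fold difference (5.66 to 6.68), and its 3p arm differed 7.02-fold (6.32 to 7.81). With total reads the cluster neighbours miR-34 and miR-317 did not follow, with log2 ratios between -0.78 and 0.84. This depended on the scaling. Of the 6 arms of the cluster, 2 were at least 4-fold higher in carcass with total reads, 4 with TMM and 3 with DESeq2 size factors. miR-987-5p had 14285 reads in carcass, 139 in Canton-S testes and 127 in Z56 testes (11.6-fold, 9.85 to 13.9), and miR-929-3p 1089, 5 and 10 reads. miR-927-5p differed between the testis libraries, with 27 reads in Canton-S and 1 in Z56 against 1312 in carcass.

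**Figure D4:**
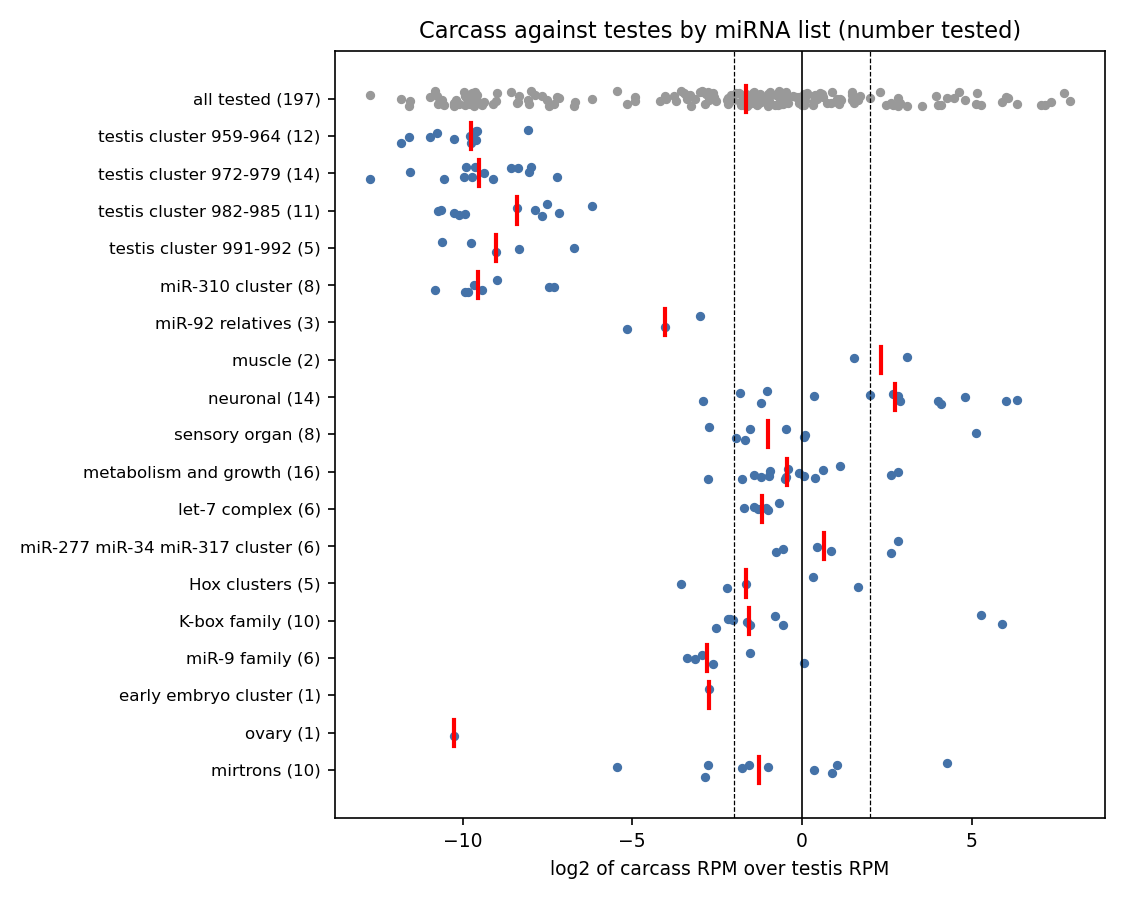
log2 ratio of carcass RPM over testis RPM for all 197 compared miRNAs (grey) and for each miRNA list (blue), 1 point per miRNA, with the median as a red bar and dashed lines at 4-fold; the number compared is in brackets, and a miRNA can be on more than one list. All testis cluster and miR-310 cluster arms lie below -6, while the neuronal list has a median of 2.75 and the median of all is -1.65.

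Many somatic regulators were shared rather than divided. Of 16 compared arms of bantam, miR-8, miR-14, miR-33, miR-275, miR-277, miR-278 and miR-305, which act in growth and metabolism, 13 differed by less than 4-fold, against 79 of all 197 compared, while 2 were higher in carcass and 1 in testes. The median log2 ratio of -0.44 turned to 1.24 with TMM, and 5 arms were then higher in carcass (4 with DESeq2 size factors) and none in testes. miR-33-5p, from an intron of the lipid regulator SREBP, stood at 15480 RPM in carcass and 14834 RPM in testes. miR-8-3p, which promotes growth through the fat body, stood at 8218 and 8794 RPM. bantam-3p, which promotes growth and blocks cell death, was at 1591 and 3110 RPM. For miR-8-3p and bantam-3p the direction turned with TMM and DESeq2 size factors. miR-33-5p was near equal with total reads only, since these scalings move its log2 ratio towards carcass by 1.68 and 1.53. miR-275-3p was an exception, at 23784 RPM in carcass against 162536 and 159922 RPM in the testis libraries.

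The let-7 complex was shared as well. None of the 6 arms of let-7, miR-100 and miR-125 differed by 4-fold, with log2 ratios from -1.71 to -0.68. Its median was -1.18 beside -1.65 over all miRNAs compared, and 0.50 with TMM. Of the Hox cluster miRNAs, miR-10-3p was at 18006 RPM in carcass and 14301 RPM in testes and miR-10-5p at 832 and 267 RPM, while miR-iab-4-5p was at 25.2 and 117 RPM. Of the 5 compared Hox arms, 2 were higher in testes and 0 in carcass with total reads. With TMM the counts were 0 and 2, and with DESeq2 size factors 1 and 1. Of the 10 compared arms of the K-box family, named for the target motif they recognise, 4 were higher in testes and 2 in carcass (miR-2c-5p and miR-308-3p), near the shares of 45.2% and 14.7% over all miRNAs compared. Those 4 lost the 4-fold difference with each of the 3 other scalings. Of 10 compared arms of mirtrons, which are cut from short introns by splicing, 3 were higher in testes and 1 in carcass, again near the shares over all, and with TMM 1 and 4. The carcass-high arm was miR-1015-3p, at 338 carcass and 2 testis reads.

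Close relatives did not always go together. miR-276a-3p, required for olfactory memory, had 101037 reads in carcass (8210 RPM), 2345 in Canton-S testes (1682 RPM) and 6091 in Z56 testes (4425 RPM), a 4.88-fold difference (4.69 to 5.09) in Canton-S and less than 4-fold against Z56. miR-276b-3p had 1876, 6 and 19 reads, a 35.4-fold difference (16.2 to 96.7). The 5p arms of both genes were listed with identical reads and cannot be told apart. miR-263a and miR-263b both protect sensory bristle cells, yet miR-263a-5p was at 7605 RPM in carcass and 10497 RPM in testes, while miR-263b-5p had 1858 reads in carcass, 6 in Canton-S testes and 0 in Z56 testes (35.1-fold, 16.1 to 95.7). miR-31a-5p was 2.68-fold and miR-31b-5p 10.7-fold higher in testes. With TMM and DESeq2 size factors miR-263a-5p and miR-31a-5p turned towards carcass. In each of these pairs the member less abundant in carcass differed more between the tissues.

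Reads of the known gonad markers served as a check of the labels. The ovary miRNAs miR-318, miR-994 and miR-989 summed to 25 reads in carcass, or 2.03 RPM, of which miR-989-3p gave 16 and miR-994-5p 8. They summed to 53257 and 84413 RPM in the ovary libraries. In the early embryo cluster, miR-309 had 1 read in carcass and none in Canton-S testes over both arms, and miR-5-5p, at 725 reads in carcass and 551 in testes, supplied nearly all reads of the list. In testes the same ovary miRNAs summed to 1600 RPM in Canton-S and 120.6 RPM in Z56, nearly all of it miR-989-3p, so the Canton-S testis library held more of them than a trace. The testis clusters made up 11.0% of its reads and 103.9 RPM of carcass. The muscle markers made up 53.1% of carcass reads. The neuronal list as a whole took 0.323% of carcass and 0.206% of testis reads, a 1.57-fold difference, while the neuron marker miR-124-3p alone differed 27.8-fold.

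Arm choice was mostly shared by carcass and testes. For 59 precursors with at least 100 reads over both arms in each library, the 5p share differed by a median of 1.1 percentage points, and 50 of them differed by less than 10 points. The share does not depend on how libraries are scaled. There were 8 precursors that differed by at least 20 points or had another main arm, and 6 of them changed their main arm.

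**Figure D5:**
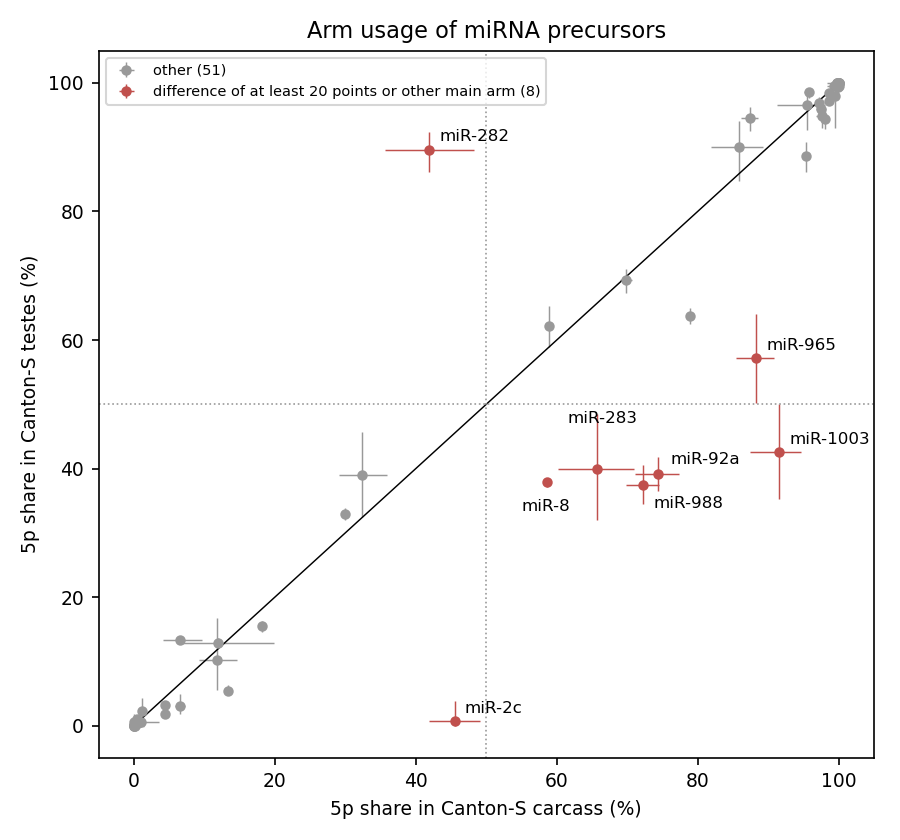
5p share of the reads of each precursor in Canton-S carcass (x axis, percent) and Canton-S testes (y axis, percent), with exact 95% counting intervals, for 59 precursors; the solid line marks equal shares and dotted lines 50%. The 8 precursors in red differ by at least 20 points or change their main arm, and miR-282 is the one among them with the higher 5p share in testes.

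The best counted of these was miR-8. Its 5p share was 58.6% in carcass (58.4% to 58.8%; 244285 reads), 37.9% in Canton-S testes (37.2% to 38.6%; 19739 reads) and 38.4% in Z56 testes. The testis libraries thus had nearly equal shares, and both lay below carcass. For miR-2c the 5p share was 45.5% in carcass (41.9% to 49.1%), 0.690% in Canton-S testes (0.0175% to 3.78%, 1 of 145 reads) and 0 of 163 reads in Z56 testes, which allows up to 2.24%. The call of miR-2c-5p as confined to carcass thus holds for 1 arm, since miR-2c-3p stood at 33.5 RPM in carcass and 103.3 RPM in testes. miR-282 went the other way, with a 5p share of 41.9% in carcass (35.6% to 48.3%), 89.6% in Canton-S testes (86.2% to 92.4%) and 96.1% in Z56 testes.

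The remaining 5 all had more 5p in carcass. miR-92a was at 74.3% in carcass, 39.2% in Canton-S testes and 24.2% in Z56 testes, and miR-988 at 72.2%, 37.5% and 40.6%. The 3p arm was thus the main product of both in either testis library and the minor one in carcass. miR-965 was at 88.3%, 57.2% and 62.3%, and miR-283 at 65.7%, 40.0% and 35.0%. The mirtron miR-1003 was at 91.6% in carcass, 42.5% in Canton-S testes (35.2% to 50.1%) and 57.1% in Z56 testes (49.1% to 64.8%), and both testis shares were below that of carcass. The interval in Canton-S testes and that in Z56 testes each include an equal split of the arms.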

How the data were processed

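The deposited tables give read counts per mature miRNA and precursor row, and RPM, which the authors scaled to 1000000 reads per column, per the file headers. Dividing each count by its column total gave the deposited RPM to within 0.005. The submitters' processing notes name TopHat with no role. Mapper settings, the handling of reads that match several miRNAs, and the build for small RNAs are not stated in any source used here. Per the labels' series text, reads of Canton-S testes were adaptor-trimmed, masked and merged into unique sequences with counts; no such note covers carcass.

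Of 476 rows, those of 8 names listed at several precursors (miR-276a-5p and miR-276b-5p, with the same reads, counted as 1) were merged by their highest row, leaving 465 miRNAs, and RPM was recomputed on the merged totals. Ratios of RPM carry exact conditional 95% intervals and shares Clopper-Pearson intervals (scipy 1.17.1, Python 3.11.15), checked on simulated counts. A library at 0 was set at 3 reads for a ratio, written as "at least". Alternative scalings used edgeR 4.0.16 (TMM) and DESeq2 1.42.0 size factors in R 4.3.3. The thresholds were 10 RPM and 4-fold; arm shares needed 100 reads per library.

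MiRNAs were named if among the 15 most abundant of either library, the 15 largest folds per direction at 100 RPM or more, confined to either library, on a list, or differing in arm usage. Seed groups were planned too, but mature sequences were not used here. The 18 lists and members were chosen with earlier results of these data known, and miR-2499 was listed with miR-982 to miR-985. The RNA-seq samples were not analysed here.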

Additional observations from a re-analysis of the deposited data

How the results depend on the processing

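The counts above are 29 miRNAs higher in carcass, 89 higher in testes, 30 confined to testes, 13 confined to carcass and 8 precursors with another arm usage. Scaling changed the balance most. The carcass-high count was 57 with TMM (51.3% of all calls then on the testis side, against 75.4%), 52 with DESeq2 size factors (53.6%) and 40 with totals without miR-1-3p (65.5%). The testis-high count was 60, 60 and 76. All 29 carcass-high miRNAs stayed at least 4-fold higher in carcass under these 3 scalings, and of the 89 testis-high ones 63, 64 and 75 stayed so in testes (60, 60 and 75 when 10 RPM is required after rescaling), with no change of direction. This shift follows from the scaling itself, which adds the same amount to each log2 ratio.

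A minimum of 100 RPM gave 17 carcass-high, 52 testis-high, 10 testis-confined and 5 carcass-confined miRNAs, and a minimum of 1 RPM gave 50 confined to testes and 37 to carcass, since fewer or more miRNAs are then compared. Without a minimum 62 were confined to carcass. Requiring 0 reads in the other library left 14 confined to testes and 2 to carcass. Arm usage differed for 5 precursors at a minimum of 200 reads, an alternative chosen after seeing the data, as were the others for arm usage. With Z56 testes in place of Canton-S testes, 31 were carcass-high and 97 testis-high; 26 of the 29 and 82 of the 89 were among them, and these comparisons share the carcass library. The neighbour groups under other scalings were also added after seeing the data. Summing rows, keeping rows as deposited, and folds of 2 or 10 left each count within 1.5 times.

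Depth limits the carcass side, since 3 reads are 2.15 RPM in testes and 0.244 RPM in carcass. No paired analysis was possible because each small RNA group has 1 library and the results come from no test.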
